A study of Homo sapiens with 12 samples.

Results

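The genes described here are 10 members of the Hippo pathway and its transcriptional output in HEK293 cells, which derive from human embryonic kidney: the co-activators YAP1 and WWTR1 (whose protein is TAZ), the kinases LATS1 and LATS2, the angiomotins AMOT, AMOTL1 and AMOTL2, and the YAP target genes CCN1, CCN2 and ANKRD1. They were chosen by name, as the rows of the deposited table whose Ensembl identifiers map to these symbols. All 10 had a row among 26058 listed genes, and all 10 were among the 22067 genes tested. RNA was sequenced from WT cells and from an AMPK KO derivative in which the genes for both catalytic subunits of AMPK, the kinase that senses low cellular energy, were disrupted with CRISPR. Whether the AMPK KO line is a single clone was not given in the sources used here. Every group was serum starved for 24 h. The groups of each line were DMSO (0.025%, the solvent) alone, DMSO for 20 min followed by EGF for 30 min (DMSO+EGF), and 25 µM cordycepin for 20 min followed by EGF for 30 min (cordycepin+EGF), and cordycepin is an adenosine analogue with no 3′ hydroxyl group. The concentration of EGF is written as 15 with different units in different places and was not resolved. Each of the 6 groups had 2 libraries, replicates 2 and 3, which the study calls biological replicates. The comparisons asked whether the response to EGF, and the effect of cordycepin in cells given EGF, needs AMPK. No group received cordycepin without EGF. An effect of cordycepin on the response to EGF therefore cannot be told apart from an effect that does not involve EGF.

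In the Hippo pathway the kinases MST1 and MST2 activate LATS1 and LATS2, which phosphorylate YAP and TAZ and so hold them in the cytoplasm or mark them for degradation. Unphosphorylated YAP and TAZ enter the nucleus, bind TEAD transcription factors and switch on genes such as CCN1, CCN2 and ANKRD1. Angiomotins bind YAP and TAZ directly and can keep them out of the nucleus. AMPK is known to phosphorylate YAP and AMOTL1 when energy is short. These steps act on proteins, which were not measured, and the values below are of RNA.

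TEAD factors bind the core sequence GGAATG, so the sequences just before the start sites are shown for the members that hold it. RefSeq promoters (GRCh38.p14, 250 bases before to 50 bases after a start site) were found for 9 of the 10 members, 12 promoters in all, and CCN1 had no entry. GGAATG was searched on both strands. It was present in 5 of the 12 promoters, of CCN2, ANKRD1, AMOTL2, YAP1 and LATS2, and in 14.0% of the 35116 promoters of the same length in the table. The 250 bases before the start site are printed 5′ to 3′ for CCN2 and ANKRD1, the members with more than 1 match, with each match in capitals.
CCN2 (chr6:131951373-131951622, minus strand): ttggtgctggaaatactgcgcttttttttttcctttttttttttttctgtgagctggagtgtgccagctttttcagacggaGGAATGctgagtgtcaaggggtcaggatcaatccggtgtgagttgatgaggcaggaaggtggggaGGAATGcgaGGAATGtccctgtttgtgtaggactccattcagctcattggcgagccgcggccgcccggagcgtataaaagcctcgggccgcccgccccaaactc
ANKRD1 (chr10:90921088-90921337, minus strand): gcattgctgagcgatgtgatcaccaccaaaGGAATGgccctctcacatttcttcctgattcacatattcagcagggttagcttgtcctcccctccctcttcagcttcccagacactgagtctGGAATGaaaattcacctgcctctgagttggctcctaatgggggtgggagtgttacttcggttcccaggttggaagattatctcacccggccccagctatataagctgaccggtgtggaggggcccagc
CCN2 held 3 matches, beginning at -169, -104 and -95 relative to the start site at +1, and ANKRD1 held 2, beginning at -220 and -128. Of all promoters 1.37% held 2 or more matches and 0.128% held 3 or more. The other 3 members had 1 match each, shown in stretches of 30 bases with the match in capitals (CATTCC where it lies on the opposite strand).
AMOTL2 (chr3:134374499-134374528, minus strand): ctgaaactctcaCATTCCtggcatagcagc
YAP1 (chr11:102110273-102110302, plus strand): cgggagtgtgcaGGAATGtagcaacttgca
LATS2 (chr13:21061560-21061589, minus strand): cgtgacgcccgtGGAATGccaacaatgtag
The matches in AMOTL2 and YAP1 begin at -69 and -162, and the match in LATS2 begins at +10, after the start site. The pattern TGANTCA, with any base at N, is looser than the AP-1 site, which has C or G at N. It was found in the promoters of ANKRD1 (at -195) and LATS1 (at -245) and in 7.71% of all promoters. The ANKRD1 match reads TGATTCA and so is not the AP-1 site itself. The CArG box bound by SRF, the factor of many serum response genes, was found in none of the 12 promoters and in 1.29% of all. These are matches of letters in a fixed window and no binding was measured.

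Depth differed between libraries. Listed genes held 4015122 reads in WT DMSO replicate 3 and 12706989 to 26499489 in the others, and 1170 of them had no read in WT DMSO replicate 3, against 3 to 127 elsewhere. The replicates of WT DMSO also correlated least across genes (Pearson r 0.918 on log2 values, against 0.961 to 0.977 in the other groups), so values without 1 of its replicates are given beside several of the results that use it. RNA of the targeted genes was still present in AMPK KO cells: PRKAA1 ran from 7.03 to 8.51 RPKM in the 6 AMPK KO libraries and from 11.2 to 21.9 in the 6 WT libraries, and PRKAA2 from 5.39 to 7.43 and from 6.78 to 12.1. RPKM are reads scaled to the length of a gene and the size of a library. Of the markers of HEK293 cells, VIM ran from 49.1 to 82.3 RPKM and NEFL from 12.5 to 33.7, while NEFM, PAX2 and LHX1 stayed below 1 RPKM. Of 10 markers of other cell types 4 had a row. PTPRC reached 0.0610 RPKM and COL1A1 1.21. Of the epithelial markers, EPCAM ran from 20.2 to 26.5 RPKM in WT and from 11.01 to 19.3 in AMPK KO libraries, and CDH1 from 1.33 to 1.55 and from 0.679 to 0.861. Their part in the differences between lines was not tested. In bulk RNA, fewer cells of a type and less RNA per cell cannot be told apart.

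The angiomotins AMOT and AMOTL1 and the kinase LATS1 were the most abundant members per length and ANKRD1 the least. Means over the 12 libraries were 17.7 RPKM for AMOT, 14.9 for AMOTL1, 10.7 for LATS1, 7.48 for WWTR1, 7.17 for CCN1, 7.01 for YAP1, 2.91 for LATS2, 2.29 for CCN2, 1.79 for AMOTL2 and 0.633 for ANKRD1. WWTR1, CCN1 and YAP1 lie close together in this order and their ranges over libraries overlap widely. Among all listed genes the mean of AMOT stood at percentile 89.8 and that of ANKRD1 at percentile 19.2. Over libraries the highest value was 1.59 times the lowest for AMOTL1, 1.65 for YAP1 and 2.55 for CCN1 and for AMOT.

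**Figure D1:**
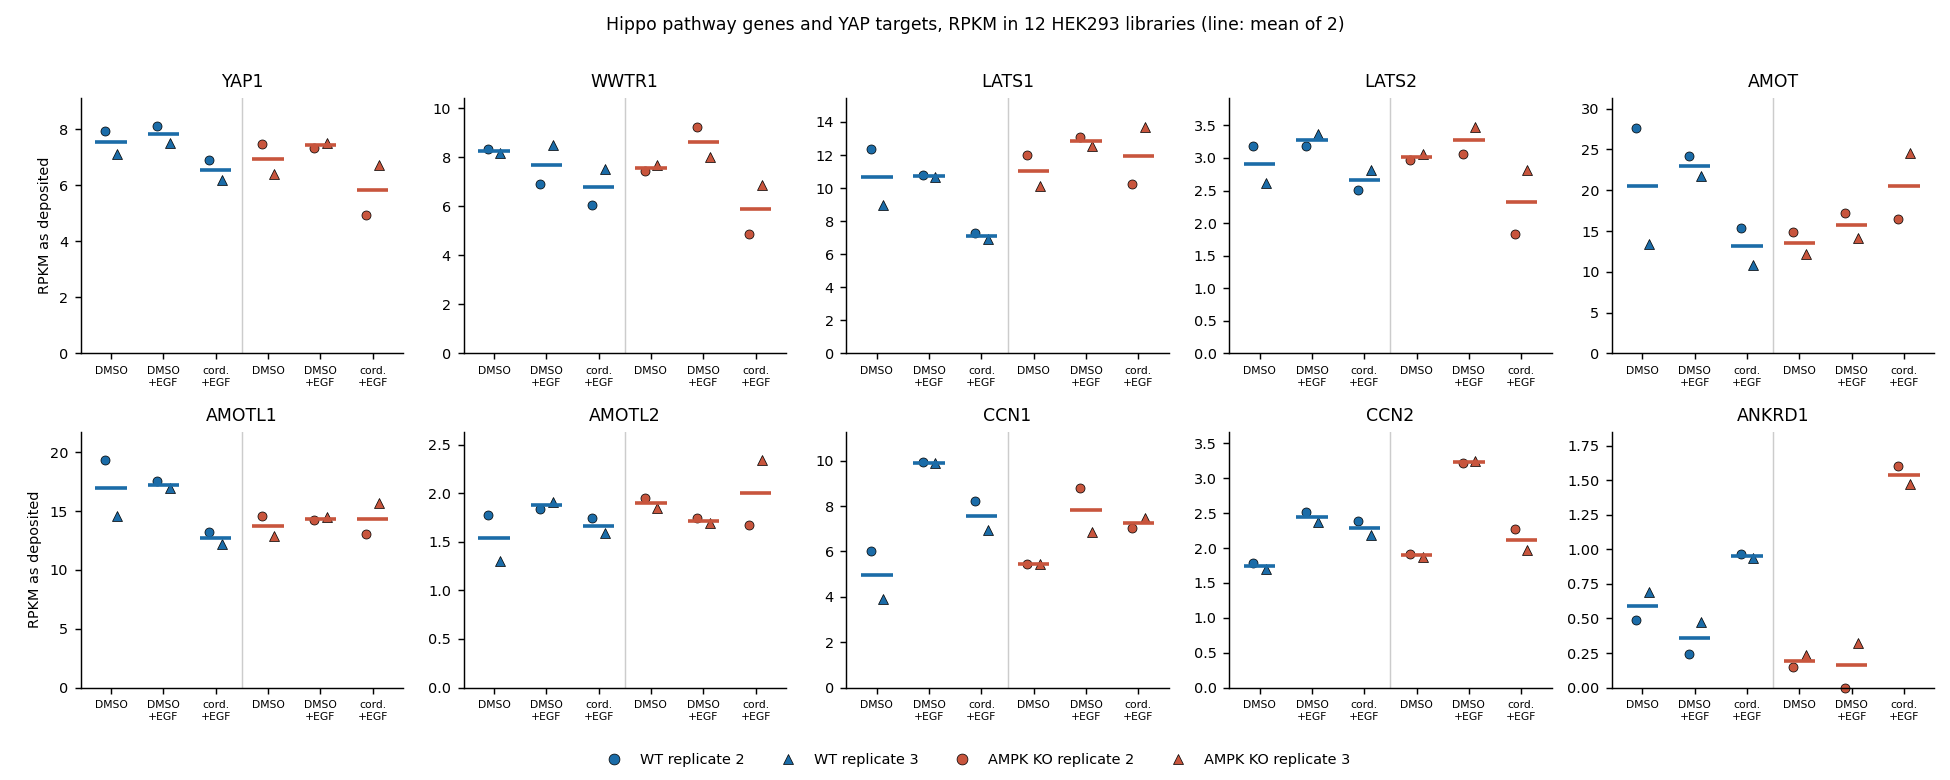
RPKM as deposited (vertical axis, from 0) of each of the 10 genes in the 12 libraries, by cell line and treatment (cord., cordycepin). Circles are replicate 2, triangles replicate 3 and lines the means of 2. CCN1 and CCN2 stand higher in DMSO+EGF than in DMSO in both lines, and ANKRD1 is highest in the cordycepin+EGF libraries of AMPK KO cells, at 1.60 and 1.48 RPKM.

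YAP1 (ENSG00000137693, GRCh38 chromosome 11, 102110447 to 102233424, plus strand) encodes the co-activator YAP. In WT cells it had 7.95 and 7.12 RPKM in DMSO (replicates 2 and 3, the order kept below), 8.12 and 7.51 in DMSO+EGF, and 6.90 and 6.18 in cordycepin+EGF. In AMPK KO cells it had 7.47 and 6.41 in DMSO, 7.34 and 7.50 in DMSO+EGF, and 4.92 and 6.72 in cordycepin+EGF. In each line both cordycepin+EGF libraries lay below both DMSO+EGF libraries, and the lines overlapped in DMSO and in cordycepin+EGF, while in DMSO+EGF the higher AMPK KO library lay just under the lower WT library. WWTR1 (ENSG00000018408, chromosome 3, 149517235 to 149736714, minus strand) encodes its paralogue TAZ. It had 8.35 and 8.18 RPKM in WT DMSO, 6.90 and 8.52 in WT DMSO+EGF, and 6.05 and 7.52 in WT cordycepin+EGF. Its AMPK KO values were 7.46 and 7.70 in DMSO, 9.26 and 8.04 in DMSO+EGF, and 4.88 and 6.89 in cordycepin+EGF. Both AMPK KO cordycepin+EGF libraries lay below both AMPK KO DMSO+EGF libraries, while in WT cells these groups overlapped. Within a library WWTR1 was 0.850 to 1.26 times YAP1 (median 1.06), so the RNAs of the co-activators were at similar levels per length. WWTR1-IT1, a transcript on the same strand inside WWTR1, averaged 3.87 RPKM, and a lncRNA antisense to YAP1 averaged 2.10. The strand setting of the counting was not given in the sources used here, so reads of overlapping genes may be shared.

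LATS1 (ENSG00000131023, chromosome 6, 149658153 to 149718105, minus strand) and LATS2 (ENSG00000150457, chromosome 13, 20973036 to 21061586, minus strand) encode the kinases that phosphorylate YAP and TAZ. In WT cells LATS1 had 12.4 and 8.98 RPKM in DMSO, 10.8 and 10.7 in DMSO+EGF, and 7.30 and 6.93 in cordycepin+EGF. Its values in AMPK KO cells were 12 and 10.1 in DMSO, 13.1 and 12.6 in DMSO+EGF, and 10.2 and 13.7 in cordycepin+EGF. The WT cordycepin+EGF libraries were the lowest of the 12 for LATS1 and lay apart from every other group. LATS2, itself a YAP target that feeds back on the pathway, had 3.19 and 2.61 RPKM in WT DMSO, 3.19 and 3.37 in WT DMSO+EGF, and 2.50 and 2.81 in WT cordycepin+EGF. The AMPK KO libraries had 2.98 and 3.06 in DMSO, 3.07 and 3.48 in DMSO+EGF, and 1.84 and 2.82 in cordycepin+EGF. In each line LATS2 was lower in both cordycepin+EGF libraries than in both DMSO+EGF libraries (limma p 0.274 in WT and 0.0687 in AMPK KO cells). LATS1 exceeded LATS2 in all 12 libraries, by 2.47 times in WT cordycepin+EGF replicate 3 up to 5.56 times in AMPK KO cordycepin+EGF replicate 2 (median 3.52). An antisense lncRNA of LATS1 averaged 1.46 RPKM.

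AMOT (ENSG00000126016, chromosome X, 112774503 to 112840831, minus strand) encodes angiomotin, a scaffold that binds YAP at junctions and actin. It had 27.6 and 13.4 RPKM in WT DMSO, 24.2 and 21.8 in WT DMSO+EGF, and 15.4 and 10.8 in WT cordycepin+EGF. Its values in AMPK KO cells were 14.9 and 12.2 in DMSO, 17.3 and 14.1 in DMSO+EGF, and 16.5 and 24.5 in cordycepin+EGF. AMOT had wide gaps between replicates, and the WT DMSO replicates alone spanned most of its range. AMOTL1 (ENSG00000166025, chromosome 11, 94706431 to 94876748, plus strand), which AMPK phosphorylates, had 19.4 and 14.6 RPKM in WT DMSO, 17.6 and 17.0 in WT DMSO+EGF, and 13.2 and 12.2 in WT cordycepin+EGF. The AMPK KO libraries had 14.6 and 12.9 in DMSO, 14.2 and 14.5 in DMSO+EGF, and 13.03 and 15.7 in cordycepin+EGF. For both genes the WT cordycepin+EGF libraries lay below both WT DMSO+EGF libraries, and in AMPK KO cells these groups overlapped. AMOTL2 (ENSG00000114019, chromosome 3, 134355347 to 134375479, minus strand), a YAP target as well as a YAP-binding protein, had 1.78 and 1.30 RPKM in WT DMSO, 1.84 and 1.91 in WT DMSO+EGF, and 1.75 and 1.59 in WT cordycepin+EGF. Its AMPK KO values were 1.96 and 1.85 in DMSO, 1.74 and 1.70 in DMSO+EGF, and 1.68 and 2.34 in cordycepin+EGF. AMOTL2 was higher in WT DMSO+EGF than in WT DMSO and lower in AMPK KO DMSO+EGF than in AMPK KO DMSO, each without overlap. On the log2 scale these changes were 0.21 in WT (limma p 0.307) and -0.10 in AMPK KO cells (p 0.598). The AMPK KO change minus the WT change was -0.31 (limma p 0.279), so an opposite response to EGF in the lines was not resolved. WT DMSO replicate 3 held 34 reads of AMOTL2. AMOTL1 stood 6.71 to 11.2 times above AMOTL2, with the highest ratios in WT DMSO, and AMOT ran from 0.890 to 1.56 times AMOTL1.

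CCN1 (ENSG00000142871, chromosome 1, 85580761 to 85584589, plus strand) and CCN2 (ENSG00000118523, chromosome 6, 131948176 to 131951372, minus strand) encode secreted matricellular proteins, also called CYR61 and CTGF, and both are immediate early genes as well as YAP targets. CCN1 had 6.04 and 3.90 RPKM in WT DMSO, 9.94 and 9.88 in WT DMSO+EGF, and 8.21 and 6.96 in WT cordycepin+EGF. Its values in AMPK KO cells were 5.47 and 5.43 in DMSO, 8.82 and 6.85 in DMSO+EGF, and 7.05 and 7.46 in cordycepin+EGF. In each line every library that received EGF exceeded both DMSO libraries, and WT DMSO+EGF was the highest group. CCN2 had 1.78 and 1.70 RPKM in WT DMSO, 2.51 and 2.37 in WT DMSO+EGF, and 2.39 and 2.19 in WT cordycepin+EGF. The AMPK KO libraries had 1.92 and 1.87 in DMSO, 3.22 and 3.25 in DMSO+EGF, and 2.28 and 1.97 in cordycepin+EGF. For CCN2 the highest group was AMPK KO DMSO+EGF, which lay apart from every other group. CCN1 was 2.11 to 4.18 times CCN2 within a library.

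ANKRD1 (ENSG00000148677, chromosome 10, 90912096 to 90921087, minus strand) encodes an ankyrin repeat protein of muscle and wounded tissue and is widely used as a YAP reporter gene. It had 0.492 and 0.694 RPKM in WT DMSO, 0.242 and 0.475 in WT DMSO+EGF, and 0.969 and 0.940 in WT cordycepin+EGF. Its AMPK KO values were 0.145 and 0.237 in DMSO, 0 and 0.324 in DMSO+EGF, and 1.60 and 1.48 in cordycepin+EGF. The 4 cordycepin+EGF libraries were the highest of the 12, and those of AMPK KO cells exceeded those of WT cells. These values rest on few reads: 15 and 5 in WT DMSO, 11 and 14 in WT DMSO+EGF, and 50 and 27 in WT cordycepin+EGF. The AMPK KO groups held 4 and 7 reads in DMSO, 0 and 8 in DMSO+EGF, and 42 and 50 in cordycepin+EGF. The library with 0 reads allows up to 0.121 RPKM (3 counts, counting error only). Its mean was 0.326 RPKM over the 8 libraries without cordycepin, so ANKRD1 passed the filter for testing (a mean of 0.5 RPKM) only through the cordycepin+EGF libraries in which it was high.

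**Figure D2:**
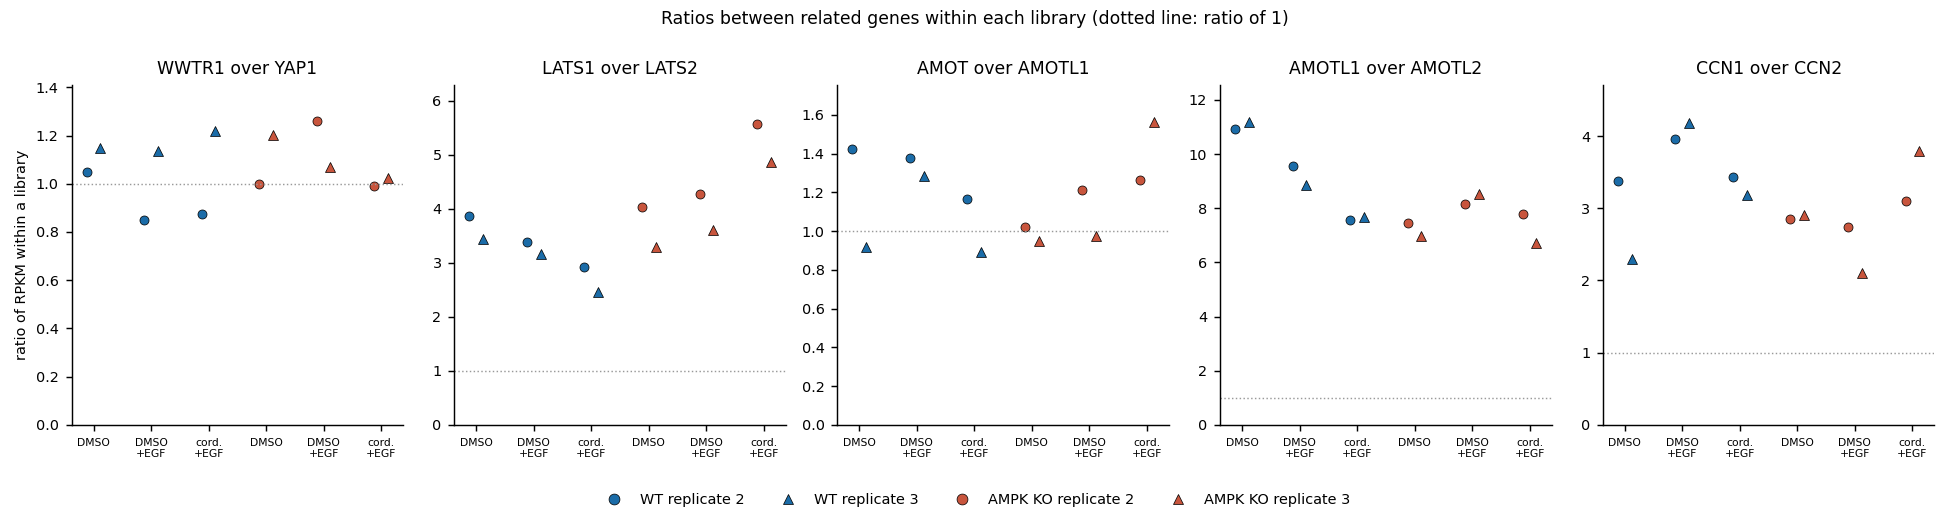
Ratio of RPKM between related members within each library (vertical axis, from 0, dotted line at a ratio of 1), by cell line and treatment. WWTR1 and YAP1 stay near a ratio of 1 (0.850 to 1.26), and LATS1 over LATS2 runs from 2.47 in a WT to 5.56 in an AMPK KO cordycepin+EGF library.

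EGF was compared with DMSO in each line. The members with the lowest p-values were CCN1 and CCN2 in both lines, with higher values after EGF, and neither passed adjustment over all tested genes. Mean RPKM after EGF was 2.00 times that in DMSO for CCN1 and 1.40 times for CCN2 in WT cells, and 1.44 and 1.71 times in AMPK KO cells. Changes are given as log2 fold changes of scaled RPKM plus 0.5, which understates changes of low genes, with the standard error and p from limma over all libraries. A gene is called where its p adjusted over all tested genes (Benjamini-Hochberg) is under 0.05.

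In WT cells the change of CCN1 was 0.93 (SE 0.198, p 0.00112, limma adjusted p 0.417) and that of CCN2 was 0.37 (SE 0.151, p 0.0376, adjusted p 0.507). In limma 0 of the 10 members were called, where 0.0227% of all tested genes were, and 2 were higher and 0 lower at an unadjusted p under 0.05, against 6.18% and 3.53% of all tested genes. The estimate for CCN1 depended on the shallow group. Without WT DMSO replicate 2, which leaves WT DMSO replicate 3 alone, it was 1.22 and called (limma adjusted p 0.0263), and without WT DMSO replicate 3 it was 0.64 (adjusted p 0.363). For CCN2 the same fits gave 0.40 and 0.34, neither called. The other 8 members had changes of -0.37 (ANKRD1) to 0.22 (AMOT) with intervals that covered 0. For YAP1 the change was 0.02 (95% interval -0.34 to 0.39) and for LATS1 it was close to 0 (-0.41 to 0.41). Of the 10 members 7 had a change above 0, with a median of 0.08 against 0.02 over all tested genes.

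In AMPK KO cells the change of CCN1 was 0.49 (SE 0.198, p 0.0364) and that of CCN2 was 0.65 (SE 0.151, p 0.00199), each with a limma adjusted p of 1.00. Again 0 members were called, where 0.0136% of all tested genes were. At an unadjusted p under 0.05, 2 members were higher and 0 lower, against 1.03% and 1.4% of all tested genes, a background at which few genes of any kind reached that threshold. The other members ran from -0.10 (AMOTL2) to 0.22 (LATS1), and the median of the 10 was 0.15 against 0.01 over all tested genes. The response of AMPK KO cells minus that of WT cells was -0.44 for CCN1 (95% interval -1.08 to 0.19, limma p 0.146) and 0.28 for CCN2 (-0.20 to 0.76, p 0.219). With each library left out in turn the CCN1 value ran from -0.74 to -0.15. The difference of the responses passed an unadjusted p of 0.05 for 0 of the 10 members, where 3.3% of all tested genes were higher and 5.38% lower, and 0 members and 0% of all tested genes were called in limma. The intervals leave room for differences of over 1 log2 unit for CCN1, AMOT and ANKRD1.

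Cordycepin+EGF was compared with DMSO+EGF to measure the effect of cordycepin on stimulated cells. ANKRD1 was the 1 member called. It rose in AMPK KO cells, where its mean RPKM was 9.51 times that in DMSO+EGF, and in WT cells the mean was 2.66 times that in DMSO+EGF without passing adjustment. The first ratio stands on DMSO+EGF libraries of 0 and 8 reads and was 4.75 against the second of them alone, and the fold in limma, on values with 0.5 RPKM added, was 3.24. ANKRD1 was tested only because its cordycepin+EGF libraries lifted its mean over the filter, so its call is no independent support for a change. Among the other target genes, CCN2 was 0.656 times its DMSO+EGF level in AMPK KO cells and 0.938 times in WT cells, CCN1 was 0.926 and 0.765 times, LATS2 0.712 and 0.810 times, and AMOTL2 1.17 and 0.888 times, none of them called. The RNAs of LATS1, AMOT and AMOTL1 had 0.663, 0.570 and 0.734 times their DMSO+EGF levels in WT cells, at unadjusted p under 0.05, and did not pass adjustment.

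In AMPK KO cells the change of ANKRD1 was 1.70 (SE 0.256, p 9.7e-05, limma adjusted p 0.0389). The call rests on 92 reads against 8 and was not stable. It was lost with a pseudocount of 0.1 (adjusted p 0.0716), when the fit held just the compared groups (0.101) and with the replicate number as a block within each line (0.0563), and it was lost when any library other than those of WT DMSO was left out, where the change was 1.34 to 2.06. Of the 10 members 1 was called, where 0.471% of all tested genes were. The change of WWTR1 was -0.49 (SE 0.174, p 0.0205, limma adjusted p 0.160) and that of CCN2 was -0.47 (SE 0.151, p 0.0120, adjusted p 0.130). At an unadjusted p under 0.05, 1 member was higher and 2 were lower, against 11.7% and 10.1% of all tested genes. YAP1 (-0.30) and LATS2 (-0.40) had intervals that reached 0.07 and 0.04, and LATS1, AMOTL1 and CCN1 lay within 0.07 of 0. Within AMPK KO cordycepin+EGF replicate 2 had the lower value for 8 of the 10 members, while replicate 3 was the higher for 49.48% of all listed genes. Such an imbalance was not particular to this group. The members higher in replicate 3 were 1 of 10 in WT DMSO, 2 in WT cordycepin+EGF, 3 in AMPK KO DMSO, 4 in WT DMSO+EGF and 5 in AMPK KO DMSO+EGF. Over the groups 47.16% to 52.54% of all listed genes were.

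In WT cells the change of ANKRD1 was 0.80 (SE 0.256, p 0.0124, limma adjusted p 0.267). The value for LATS1 was -0.52 (SE 0.181, p 0.0188, adjusted p 0.274), for AMOT -0.76 (SE 0.330, p 0.0462, adjusted p 0.307) and for AMOTL1 -0.39 (SE 0.155, p 0.0331, adjusted p 0.288). In limma 0 members were called, where 0.00453% of all tested genes were, and 1 was higher and 3 lower at an unadjusted p under 0.05, against 8.86% and 7.13% of all tested genes. All members other than ANKRD1 had a change below 0, with a median of the 10 of -0.21 against 0.03 over all tested genes. For the knockout the median was -0.06 against 0.06. The estimates for CCN1 (-0.33, 95% interval -0.77 to 0.12) and CCN2 (-0.04, -0.38 to 0.30) did not pass an unadjusted p of 0.05.

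The effect of cordycepin in AMPK KO minus that in WT cells was 1.17 for AMOT (95% interval 0.11 to 2.23, limma p 0.0341, adjusted p 0.201) and 0.90 for ANKRD1 (0.08 to 1.72, p 0.0345, adjusted p 0.202). ANKRD1 passed the filter only through AMPK KO cordycepin+EGF, which enters this difference, so its value is no independent support for it. In limma 0 members and 0% of all tested genes were called, and 2 members were higher and 0 lower at an unadjusted p under 0.05, against 10.9% and 10.5% of all tested genes. For AMOT the WT change was -0.76, and that of the knockout was 0.40 (-0.34 to 1.15). CCN2 differed by -0.43 (-0.92 to 0.05) and AMOTL1 by 0.43 (-0.06 to 0.93). For LATS1, with values of -0.52 in the WT line and -0.07 in the knockout, the difference was 0.45 (-0.13 to 1.03) and did not pass an unadjusted p of 0.05.

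**Figure D3:**
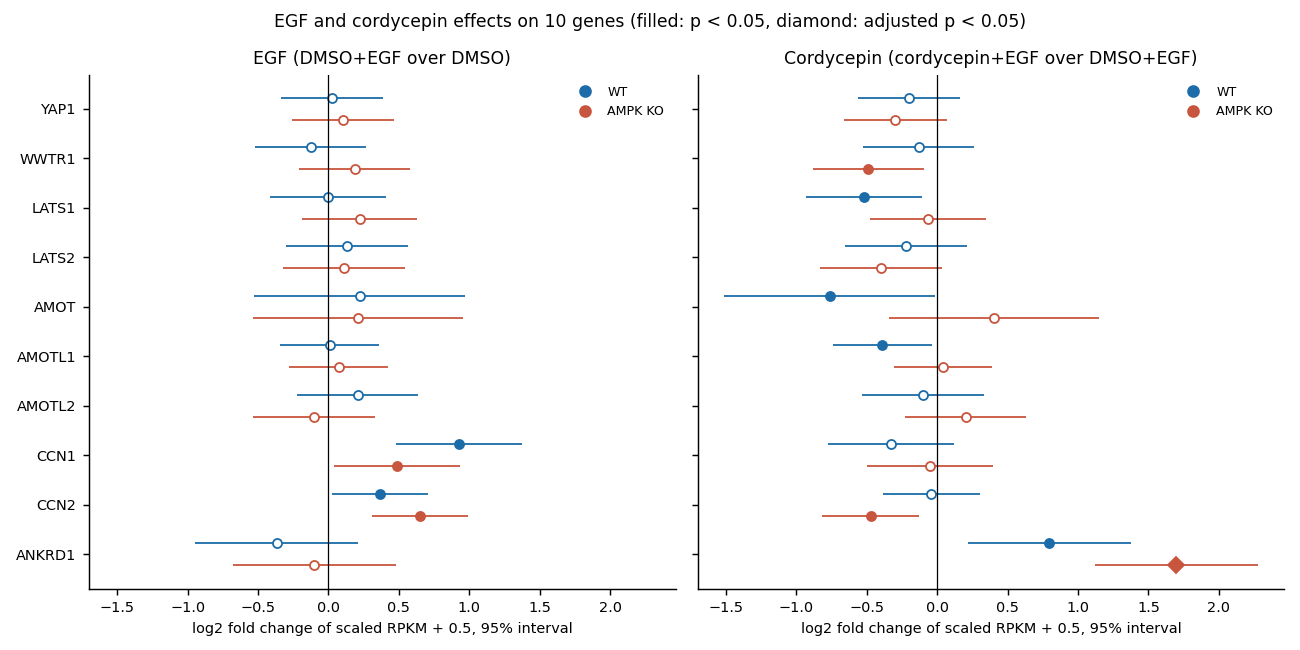
Log2 fold change of scaled RPKM + 0.5 (horizontal axis) with its 95% interval for each of the 10 genes, for EGF (left) and for cordycepin (right), in WT and AMPK KO cells. Filled symbols have an unadjusted p under 0.05 and the diamond an adjusted p under 0.05. CCN1 and CCN2 lie to the right of 0 after EGF in both lines, and ANKRD1 lies at 0.80 (WT) and 1.70 (AMPK KO) with cordycepin.

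AMPK KO cells were compared with WT cells under each treatment. In limma 0 members were called in any of these comparisons. LATS1 had the lowest p-value of the members with cordycepin+EGF and over the mean of the treatments, but not in DMSO or DMSO+EGF. With cordycepin+EGF its level in AMPK KO cells was 1.68 times that of WT cells, where 10.2 and 13.7 RPKM stood against 7.30 and 6.93. On the log2 scale LATS1 differed by 0.04 in DMSO (95% interval -0.37 to 0.45) and by 0.26 in DMSO+EGF (-0.15 to 0.67). The co-activators YAP1 and WWTR1 differed little on average, by -0.11 (95% interval -0.32 to 0.10) and -0.05 (-0.28 to 0.18) over the mean of the treatments.

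In DMSO, ANKRD1 differed by -0.66 (SE 0.256, p 0.0288, limma adjusted p 0.190), from 11 reads in AMPK KO and 20 in WT cells, and the estimate was -0.80 to -0.53 with each library left out. That made 0 members higher and 1 lower at an unadjusted p under 0.05, against 12% and 9.29% of all tested genes, with 0.44% of all tested genes called. In DMSO+EGF, CCN2 differed by 0.36 (SE 0.151, p 0.0411, limma adjusted p 0.200), with 3.22 and 3.25 RPKM in AMPK KO against 2.51 and 2.37 in WT cells. There 1 member was higher and 0 lower, against 11.1% and 11.4% of all tested genes, with 1.74% called. In cordycepin+EGF, LATS1 differed by 0.72 (SE 0.181, p 0.00333, limma adjusted p 0.212). There 1 member was higher and 0 lower, against 7.1% and 6.64% of all tested genes, with 0.118% called. ANKRD1 differed by 0.50 (-0.07 to 1.08) and AMOT by 0.64 (-0.11 to 1.39) in that comparison, and neither passed an unadjusted p of 0.05.

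Over the mean of the 3 treatments LATS1 differed by 0.34 (SE 0.105, p 0.00997, limma adjusted p 0.110). This made 1 member higher and 0 lower, against 10.9% and 9.44% of all tested genes, and 0 members were called where 4.34% of all tested genes were. With voom on reads recovered from the RPKM values, LATS1 was called in cordycepin+EGF (0.74, adjusted p 0.0422) and over the mean (0.33, adjusted p 0.0397), and without WT DMSO replicate 2 it was called over the mean (0.42, adjusted p 0.0439). The other 9 members lay between -0.19 (ANKRD1) and 0.12 (CCN2 and AMOTL2) over the mean, with intervals that covered 0.

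**Figure D4:**
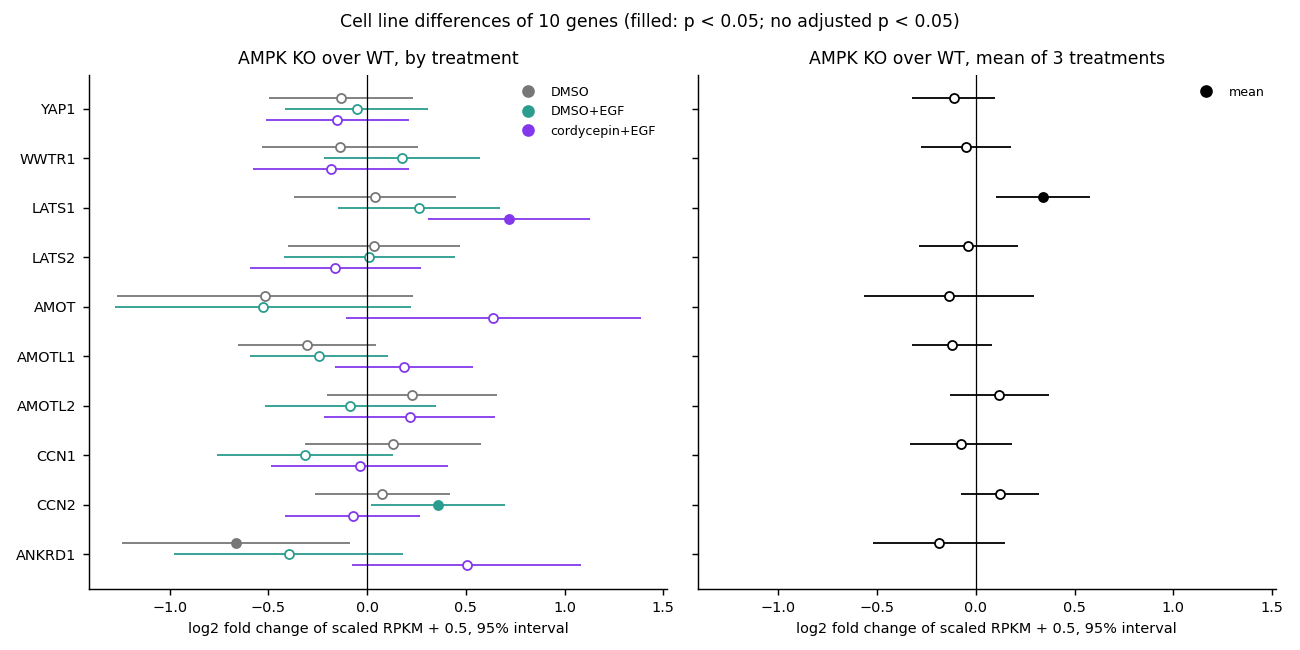
Log2 fold change of AMPK KO over WT (scaled RPKM + 0.5, horizontal axis) with its 95% interval for each of the 10 genes, by treatment (left) and over the mean of the 3 treatments (right). Filled symbols have an unadjusted p under 0.05. LATS1 lies at 0.72 with cordycepin+EGF and at 0.34 over the mean.

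The rest of the pathway was read from a list of 40 upstream Hippo and TEAD genes, of which 37 had a row and 34 were tested. After EGF, 2 were higher and 2 lower in WT cells at an unadjusted p under 0.05, against 6.18% and 3.53% of all tested genes. In the knockout 0 were higher and 1 lower, against 1.03% and 1.4%, and 0 were called in either line in limma. SCRIB, a polarity scaffold that links cell contacts to Hippo signalling, was the gene with the highest change in WT cells. It had 13.01 and 14.2 RPKM in WT DMSO and 23.2 and 23.8 in WT DMSO+EGF, against 18.2 and 24.4 in AMPK KO DMSO and 16.7 and 16.1 in AMPK KO DMSO+EGF. Its change was 0.74 in WT (SE 0.149, limma adjusted p 0.417) and -0.35 in AMPK KO cells, and the difference of -1.09 (SE 0.211, p 0.000612, adjusted p 0.569) did not pass adjustment. LLGL1, which acts with SCRIB in cell polarity, had a change of 0.59 in WT cells, the polarity gene PALS1 -0.39 and the kinase gene TAOK1 -0.29. The medians over the list were -0.03 and 0.06, against 0.02 and 0.01 over all tested genes.

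With cordycepin, 1 of the 34 upstream genes was higher and 6 lower in WT cells at an unadjusted p under 0.05, against 8.86% and 7.13% of all tested genes. In the knockout 2 were higher and 6 lower, against 11.7% and 10.1%, and 0 were called in limma. The medians over the list were -0.11 and -0.19, against 0.03 and 0.06 over all tested genes. The largest changes below 0 in the knockout were those of MOB1B, a co-activator of the LATS kinases, at -0.69 (SE 0.138, limma adjusted p 0.0620), and WWC2, a scaffold that promotes LATS activity, at -0.58 (SE 0.131, adjusted p 0.0714). MOB1B had 7.38 and 6.99 RPKM in AMPK KO DMSO+EGF and 4.03 and 4.23 in AMPK KO cordycepin+EGF. In WT cells it had 4.09 and 4.71 in DMSO+EGF and 4.89 and 5.55 in cordycepin+EGF. The groups of MOB1B did not overlap in either line and lay in opposite order. Its change in WT cells did not pass an unadjusted p of 0.05. The difference of the effects on MOB1B was -0.95 (SE 0.196, limma p 0.000893, adjusted p 0.122). TEAD4, a partner of YAP on DNA, had the lowest change in WT cells at -0.98 (SE 0.315, limma adjusted p 0.267), from 13.9 and 14.5 RPKM to 6.45 and 6.99. TEAD4 in AMPK KO cells had 6.13 and 5.79 RPKM in DMSO+EGF and 5.31 and 10.2 in cordycepin+EGF. The upstream gene higher in WT cells was TAOK2 (0.52, SE 0.206, limma adjusted p 0.288). Those higher in the knockout were NUAK2 (0.62, SE 0.214, limma adjusted p 0.152) and TEAD3, another TEAD factor (0.40, SE 0.125, adjusted p 0.123). NUAK2 was low, with a mean of 0.590 RPKM.

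Between the lines, 2 of the 34 upstream genes were called, both over the mean of the 3 treatments, where 4.34% of all tested genes were. FAT1, an atypical cadherin at the head of the pathway, was lower in the knockout and fell by 0.93 (SE 0.192, limma adjusted p 0.0318). It had 25.6 and 11.2 RPKM in WT DMSO, 21.6 and 20.2 in WT DMSO+EGF, and 12.7 and 10.2 in WT cordycepin+EGF. Its values in AMPK KO cells were 7.19 and 7.05, 8.01 and 7.06, and 8.07 and 12.2 in the same groups, so the lines overlapped with cordycepin+EGF alone. WWC2 fell by 0.40 (limma adjusted p 0.0232), and the lines did not overlap in DMSO or in cordycepin+EGF, where 9.69 and 11.7 RPKM stood against 5.93 and 6.53. Over the mean the FAT1 estimate was -0.73 without WT DMSO replicate 2 and -1.12 without replicate 3. For WWC2 the same fits gave -0.43 and -0.36. Both calls held without WT DMSO replicate 3. Both were lost without any 1 of the DMSO+EGF libraries, the AMPK KO DMSO libraries, WT cordycepin+EGF replicate 3 or AMPK KO cordycepin+EGF replicate 2, and FAT1 also without WT cordycepin+EGF replicate 2, and adjusted p then ran up to 0.102 for FAT1 and 0.0908 for WWC2. Over the mean 3 upstream genes were higher and 6 lower at an unadjusted p under 0.05, against 10.9% and 9.44% of all tested genes, with a median of 0.02 over the list. The highest was RASSF1, a scaffold for the MST kinases, at 0.49 (SE 0.174, limma adjusted p 0.155), which was 0.32 without WT DMSO replicate 2 and 0.67 without replicate 3.

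A YAP/TAZ target signature of 22 genes, 21 with a row and 18 tested, holds CCN1, CCN2, ANKRD1, AMOTL2 and LATS2 as well as genes outside the 10. After EGF 4 of the 18 were higher and 0 lower in WT cells at an unadjusted p under 0.05, against 6.18% and 3.53% of all tested genes. In the knockout 2 were higher and 0 lower, against 1.03% and 1.4%, and 0 were called in limma. The 4 in WT cells were CCN1, CCN2, FJX1 and FOXF2. The 2 in the knockout were CCN1 and CCN2, which are already counted among the 10 members, so no signature gene outside the 10 passed there. The medians were 0.13 and 0.16, against 0.02 and 0.01 over all tested genes. FJX1, which encodes the four-jointed homologue, went from 6.79 and 5.68 RPKM to 11.1 and 12.03 in WT cells, a change of 0.82 (SE 0.224, limma adjusted p 0.438). The AMPK KO libraries went from 5.11 and 7.54 to 6.13 and 4.91, and the difference of the changes was -0.97 (p 0.0134, limma adjusted p 0.570).

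With cordycepin the signature had 1 gene higher and 2 lower in WT cells at that threshold, against 8.86% and 7.13% of all tested genes. In the knockout 2 were higher and 2 lower, against 11.7% and 10.1%, and ANKRD1 was the 1 called of 18, where 0.471% of all tested genes were. As said above, ANKRD1 was tested only because its cordycepin+EGF libraries lifted its mean over the filter. Its call is therefore no independent support for a change of the signature. The medians of the signature were -0.18 (WT) and 0.13 (AMPK KO), against 0.03 and 0.06 over all tested genes. In AMPK KO cells 12 of the 18 had a change above 0. DOCK5, an exchange factor for Rac, had a change of -0.98 in WT cells (SE 0.310, limma adjusted p 0.267), from 6.47 and 6.20 RPKM to 3.18 and 2.59. The stress gene GADD45A had a change of -0.72 in the knockout (SE 0.235, limma adjusted p 0.137), from 20.6 and 23.0 RPKM to 12.5 and 12.7, against 11.3 and 12.4 to 13.7 and 19.1 in WT cells. In the comparison of lines over the mean of the treatments 2 signature genes were higher (GADD45A 0.50, CCDC80 0.35) and 2 lower (FJX1 -0.43, CRIM1 -0.30), against 10.9% and 9.44% of all tested genes, with limma adjusted p from 0.0784 to 0.102 and 0 called. CCDC80 passed the filter only through AMPK KO cordycepin+EGF, where it was highest, with a mean of 0.469 RPKM over the other 10 libraries.

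Across the 12 libraries the members did not move as a block. The correlation of log2 scaled values was highest between AMOT and AMOTL1 (Pearson r 0.901), then between YAP1 and LATS2 (0.801) and between WWTR1 and LATS2 (0.783). CCN1 and CCN2 had r of 0.645 and YAP1 and WWTR1 0.641, while ANKRD1 had r of -0.00531 with CCN1 and -0.269 with CCN2. These are descriptions over 12 libraries that share groups, and pairs of libraries also share depth. Among 18783 genes with a mean of at least 1 RPKM, those with the highest r to CCN1 were PIMREG (0.891), FOS (0.890), the immediate early AP-1 gene, and ADM (0.889). For CCN2 they were ATF6-DT (0.876), ENSG00000273261 (0.791) and EMC4 (0.772). For ANKRD1 they were RPL22L1 (0.931), PPIAP2 (0.924) and SLC7A7 (0.923), for AMOTL2 FOXQ1 (0.917), MDGA1 (0.903) and ACSF2 (0.893), and for YAP1 TRPS1 (0.899), EIF3H (0.898) and STIP1 (0.894).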

How the data were processed

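Stranded, ribosomal RNA-depleted libraries of HEK293 cells were sequenced as paired reads of 150 bases. The authors used GRCh38.p13 for mapping and Rsubread for counting, and deposited RPKM. Their version of Rsubread and the rule for keeping genes were not given in the sources used here. The authors discarded replicate 1, which was not analysed here. Groups and replicate numbers came from the sample labels. Symbols and positions came from GENCODE 44 (GRCh38), which named 26029 of 26058 listed genes, and 2 rows that named no gene were left out. The deposited RPKM were whole multiples of 1 read per library and gene: within 0.05 of a read, 96.25% of genes at the annotated exon length and 99.54% after a search for the length. These reads were used for depth and for an alternative. The library size implied by the deposited RPKM was 1.04 to 1.15 times the reads on listed genes in the cordycepin+EGF libraries and 0.972 to 1.03 times in the others. A size below the reads it holds is not a plain count of reads, and how it was set was not tested.

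RPKM were scaled by each library's upper quartile (percentile 75), as the study did, and analysed as log2(value + 0.5). Genes with a mean of at least 0.5 RPKM were tested with limma 3.58.1 in R 4.3.3 (group means of all 12 libraries, eBayes with trend, two-sided), with Benjamini-Hochberg adjustment within each of 10 comparisons and 6 residual degrees of freedom. The comparisons of a line share libraries. The code was tested on simulated data. The members were named, and the lists chosen, with earlier results of these data known. From the lists, up to 2 genes per direction and comparison were named among those with the largest change at an unadjusted p under 0.05. Genes alike to a member were the 3 with the highest correlation. A marker gene of the cell line is not reported here.

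The alternatives tried were no filter, a filter at 1 RPKM, pseudocounts of 0.1 and 1, RPKM as deposited, median-ratio scaling, only the groups compared, a replicate block in all libraries or within each line, eBayes without trend, voom on the recovered reads, and leaving out each library. As a check of pairing, replicate 3 minus replicate 2 was correlated between groups over the tested genes, with r of 0.136, 0.282 and 0.314 between WT groups, and of -0.0677, 0.0307 and -0.122 between AMPK KO groups, and of -0.0809 to 0.322 between groups of different lines. Every pair of WT groups was over 0.1 and no pair of AMPK KO groups was. The highest r, 0.322, lay between groups of different lines (WT cordycepin+EGF and AMPK KO DMSO). These values therefore do not show whether replicates were paired within a line, and the design does not say.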

Additional observations from a re-analysis of the deposited data

Results flagged for a closer look

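The effect of cordycepin differed between the lines at an unadjusted p under 0.05 for 2 members. AMOT differed by 1.17 on the log2 scale (AMPK KO minus WT, limma adjusted p 0.201), with WT libraries of 24.2 and 21.8 RPKM in DMSO+EGF and 15.4 and 10.8 with cordycepin+EGF, and AMPK KO libraries of 17.3 and 14.1 and of 16.5 and 24.5. ANKRD1 differed by 0.90 (limma adjusted p 0.202), from 25 and 77 reads in the WT groups and 8 and 92 in the AMPK KO groups. ANKRD1 passed the filter only through AMPK KO cordycepin+EGF, with a mean of 0.452 RPKM over the other 10 libraries. That group enters this difference, so the ANKRD1 value is no independent support for it. Neither passed adjustment over all tested genes, and 10.9% of all tested genes were higher in this comparison at the same unadjusted threshold. Groups of 2 libraries were too small to look for single outlying libraries.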

How the results depend on the processing

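The count of called members changed in 4 comparisons. For cordycepin in AMPK KO cells it went from 1 (ANKRD1) to 0 with a pseudocount of 0.1 (ANKRD1 3.03, limma adjusted p 0.0716), with only the groups compared (adjusted p 0.101), with a filter at 1 RPKM (ANKRD1 not tested) and with the replicate block within each line (adjusted p 0.0563), and ran from 0 to 1 with each library left out. For EGF in WT cells it ran from 0 to 1 with each library left out (CCN1 called without WT DMSO replicate 2). For AMPK KO against WT in cordycepin+EGF it went from 0 to 1 with voom (LATS1). Over the mean of 3 treatments it went from 0 to 1 with voom and ran from 0 to 1 with each library left out (LATS1). The cause of these changes was not tested, other than for the filter. The replicate block in all libraries changed no call of a member. With the numbers of AMPK KO cordycepin+EGF crossed, an alternative chosen after seeing the data, the block within each line called 0 members and 26 genes, against 18 genes uncrossed and 104 without a block. No called value changed direction. Among uncalled members the sign changed in 7 values over the alternatives and in 49 with a library left out. Leaving out a library can leave its group with 1 sample, which is then assumed to vary like the others. With 2 libraries per group, a shallow WT DMSO replicate 3 (16 reads of CCN2, 5 of ANKRD1) and reads without molecular identifiers, small changes of the low members could not be resolved.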
